A study of Homo sapiens with 6 samples.

Results

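The genes described here encode the nuclear part of respiratory complex I and the factors that build it. They were chosen by symbol, as the protein-coding genes named NDUFA, NDUFB, NDUFC, NDUFS, NDUFV, NDUFAB or NDUFAF with a number, and 47 of the 60617 genes in the deposited counts fitted. All 47 passed the filter on low counts, among 18505 genes tested. By role, 37 are subunits of complex I, 8 are assembly factors with an NDUFAF symbol, and 2, NDUFA4 and NDUFA4L2, carry the family name but are not complex I subunits. The libraries are RNA-seq of total RNA from A549 cells, a line derived from human lung cancer, and comprise a YTHDF1 knockout group and a wild-type group of 3 biological replicates each, grown in the same serum-containing medium. YTHDF1 is a cytoplasmic reader of N6-methyladenosine (m6A) in mRNA. The labels do not say which part of YTHDF1 was edited, whether the knockout is 1 clone or a pool, or whether replicates came from separate cultures, so p-values measure the spread between these libraries, which may be technical.

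Complex I, NADH:ubiquinone oxidoreductase, is the entry point of electrons from NADH into the respiratory chain of mitochondria. Its matrix arm holds the core subunits that oxidise NADH and pass electrons over iron-sulfur clusters to ubiquinone, and its membrane arm, whose core subunits are encoded in mitochondrial DNA, pumps protons. Accessory subunits surround both arms, and assembly factors hold and modify intermediates without remaining in the finished enzyme.

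Libraries held 32037107 to 40675628 counts in the knockout group and 27238817 to 40460782 in the wild-type group. YTHDF1 itself averaged 48.1 ± 0.87 CPM (counts relative to library size scaled with TMM factors) in the knockout group and 99.4 ± 3.89 CPM in the wild-type group (SD, n = 3 each), so its RNA was lower but still present in the libraries labelled knockout. Keratin genes were abundant in both groups, with KRT8 at 1750 to 1830 CPM in knockout libraries, against 1510 to 1650 CPM in wild-type libraries, while EPCAM, another epithelial marker, was at 1.61 to 2.21 CPM in knockout libraries, against 1.74 to 2.56 CPM in wild-type libraries. Of the 6 epithelial markers, 4 rose: CDH1 averaged 34 ± 0.602 CPM in the knockout group and 10.0 ± 1.69 CPM in the wild-type group (log2 fold change 1.76, adjusted p = 3.24e-17), KRT19 rose by 0.52, KRT7 by 0.40 and KRT8 by 0.19. The 6 leukocyte markers summed to 3 to 4 CPM in the knockout group and 11 to 12 CPM in the wild-type group, nearly all of it CD14, and CD3E had 0 counts in every library. The 6 fibroblast and endothelial markers, mostly COL1A1, summed to 41 to 45 CPM in the knockout group and 29 to 35 CPM in the wild-type group, while PDGFRB in that list fell to 0.124 ± 0.124 CPM in the knockout group, against 1.34 ± 0.323 CPM in the wild-type group (adjusted p = 4.76e-06). Mitochondrially encoded mRNAs took 3.72% to 3.98% of the counts in knockout libraries and 5.76% to 5.92% in wild-type libraries. The part of these differences in the results below was not tested.

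Most of the complex I genes that changed were lower in the knockout. Of the 47 genes, 23 fell, 3 rose and 21 did not pass the threshold, where 53.5% of all tested genes passed it in either direction. The threshold was 0.05 on the p of edgeR's quasi-likelihood test, adjusted over all tested genes by the Benjamini-Hochberg method. The share that fell was 48.9%, where 26.3% of all tested genes fell. The share that rose was 6.38%, where 27.2% of all tested genes rose. The median of the 47 log2 fold changes was -0.20, that of all tested genes was 0, and the 47 values ran from -0.70 to 0.55. An absolute log2 fold change above 0.5 was reached by 14.9% of the 47 genes and by 37.3% of all tested genes. The groups did not overlap for 29 of the 47, where 58.9% of all tested genes did not overlap, a share close to the 29 of 47.

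Because well-expressed genes are called more easily, the same counts were read within levels. Of the 25 genes averaging 20 CPM or more in the wild type, 17 fell and 1 rose, which is 68% and 4%, where 41.1% and 32.2% of all tested genes at that level fell and rose. Of the 16 genes from 5 to 20 CPM, 6 fell and 2 rose, which is 37.5% and 12.5%, where 27.3% and 32.0% of all tested genes at that level did so. None of the 6 genes below 5 CPM passed the threshold in either direction, where 10.6% of all tested genes at that level fell and 19.8% rose. The 37 subunits summed to 1019, 966 and 940 CPM in the knockout libraries, against 1153, 1171 and 1140 CPM in the wild-type libraries, a ratio of 0.844. Every knockout library was below every wild-type library. These are shares of each library's RNA, in which a fall of these RNAs and a rise of other RNAs cannot be told apart. Nor can less RNA in every cell be told from fewer cells that express these genes.

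**Figure D1:**
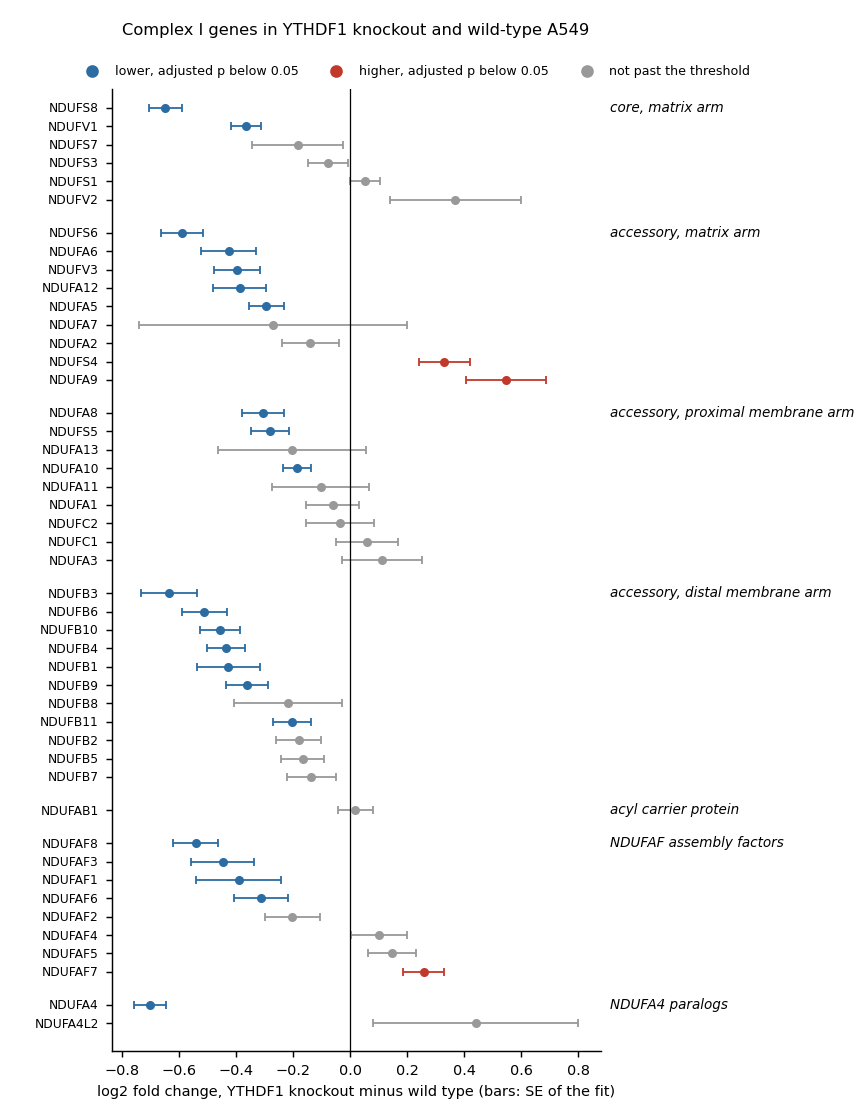
Log2 fold change of 46 of the 47 genes, YTHDF1 knockout minus wild type, on the horizontal axis, with genes grouped by role down the page and bars giving the SE of the fit (3 libraries per group). All 11 subunits of the distal membrane arm lie left of 0 and 7 of them passed the threshold, while the red points are NDUFA9, NDUFS4 and NDUFAF7.

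To show the genomic context of genes that moved in opposite directions, the promoter windows of 3 of them are given, taken from RefSeq on GRCh38.p14 and running from 250 bases before the gene's start to 50 after it. NDUFS8 had the largest fall among the subunits of complex I, NDUFS6 had the largest among accessory subunits of the matrix arm, and NDUFS4 rose. Capitals mark matches on either strand to 6 short motifs described with the promoter counts further on: in NDUFS8 (chr11:68030431-68030730, plus strand) they are CCAAT or its reverse complement, in NDUFS6 (chr5:1801157-1801456, plus strand) an Sp1 and an NRF1 motif, and in NDUFS4 (chr5:53560389-53560688, plus strand) a YY1 motif.
NDUFS8: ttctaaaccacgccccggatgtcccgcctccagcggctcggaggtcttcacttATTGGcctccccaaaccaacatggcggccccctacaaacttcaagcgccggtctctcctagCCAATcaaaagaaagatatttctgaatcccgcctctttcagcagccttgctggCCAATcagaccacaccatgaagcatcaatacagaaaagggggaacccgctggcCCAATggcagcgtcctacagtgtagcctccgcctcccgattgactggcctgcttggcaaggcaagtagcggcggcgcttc
NDUFS6: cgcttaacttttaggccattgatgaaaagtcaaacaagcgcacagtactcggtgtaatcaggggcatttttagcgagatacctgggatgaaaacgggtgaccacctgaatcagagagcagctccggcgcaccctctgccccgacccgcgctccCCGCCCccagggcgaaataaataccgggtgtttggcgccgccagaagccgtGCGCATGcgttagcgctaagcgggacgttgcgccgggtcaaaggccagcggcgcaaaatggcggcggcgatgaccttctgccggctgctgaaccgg
NDUFS4: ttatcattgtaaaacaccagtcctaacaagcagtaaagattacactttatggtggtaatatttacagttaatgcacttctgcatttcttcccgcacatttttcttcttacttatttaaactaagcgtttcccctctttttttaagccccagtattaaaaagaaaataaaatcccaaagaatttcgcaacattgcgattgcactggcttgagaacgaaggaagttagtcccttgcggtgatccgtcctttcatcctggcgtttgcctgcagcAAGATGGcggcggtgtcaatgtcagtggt

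Among the core subunits of the matrix arm, 3 of 7 fell and 0 rose. Beside this count and those of the other roles below, 26.3% of all tested genes fell and 27.2% rose. NDUFS8, an iron-sulfur subunit on chromosome 11 (68030617 to 68036644), had 48.2, 44.3 and 42.8 CPM in the knockout libraries, against 69.4, 70.6 and 71.9 CPM in the wild-type libraries. All 3 knockout values lay far below the lowest wild-type value, and NDUFS8 fell by 0.65 on the log2 scale (SE 0.057, adjusted p = 1.54e-11), or 36.2% lower. NDUFV1, which binds NADH and the flavin that accepts its electrons, had 73.2, 69.0 and 69.1 CPM in the knockout libraries, against 94.5, 88.0 and 89.6 CPM in the wild-type libraries. The groups did not overlap, and NDUFV1 fell by 0.37 (SE 0.051, adjusted p = 2.4e-07).

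NDUFS1, NDUFS3, NDUFS7 and NDUFV2 did not pass the threshold. NDUFS1, the large iron-sulfur subunit that receives electrons from the NADH site, had 76.0, 72.7 and 81.0 CPM in the knockout libraries, against 74.4, 73.8 and 73.6 CPM in the wild-type libraries, a log2 fold change of 0.05 (SE 0.053, adjusted p = 0.44), and the groups overlapped. NDUFS3, a core subunit near the ubiquinone site, had 35.8, 31.6 and 30.5 CPM in the knockout libraries, against 34.8, 34.2 and 34.3 CPM in the wild-type libraries (adjusted p = 0.365). The wild-type values lay inside the range of the knockout values. NDUFS7, which carries the last iron-sulfur cluster before ubiquinone, had 3.65, 5.27 and 4.57 CPM in the knockout libraries, against 5.28, 5.19 and 4.95 CPM in the wild-type libraries (adjusted p = 0.357), and the groups overlapped. NDUFV2, the iron-sulfur partner of NDUFV1, had 3.03, 2.28 and 2.38 CPM in the knockout libraries, against 2.24, 2 and 1.7 CPM in the wild-type libraries (adjusted p = 0.189), so the groups just failed to overlap although the threshold was not passed. Low counts limit the last 2 genes, with SEs of 0.16 and 0.23 on the log2 scale against 0.053 for NDUFS1.

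Of the 9 accessory subunits of the matrix arm, 5 fell and 2 rose. NDUFS6, a zinc-binding subunit, had 22.3, 22.5 and 20.8 CPM in the knockout libraries, against 34.1, 33.9 and 31.0 CPM in the wild-type libraries. Its groups were well apart, with a log2 fold change of -0.59 (SE 0.074, adjusted p = 3.28e-08). NDUFA6 fell by 0.43, NDUFV3 fell by 0.40, NDUFA12 fell by 0.39 and NDUFA5 fell by 0.29. NDUFA2 and NDUFA7 did not pass, with log2 fold changes of -0.14 and -0.27 and SEs of 0.10 and 0.47.

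The 2 accessory subunits that rose both belong to this arm. NDUFA9, a subunit of the reductase-like fold that binds a nicotinamide nucleotide, had 8.45, 9.71 and 11 CPM in the knockout libraries, against 5.86, 8.35 and 6.04 CPM in the wild-type libraries. The lowest knockout value was only just above the highest wild-type value, and the log2 fold change was 0.55 (SE 0.14, adjusted p = 0.00118). Part of the NDUFA9 exons is shared with other genes on the same strand, so its values are uncertain, as described further on. NDUFS4, which stabilises the attachment of the NADH-oxidising module and is mutated in Leigh syndrome, had 26.6, 24.8 and 21.3 CPM in the knockout libraries, against 19.9, 20.4 and 17.6 CPM in the wild-type libraries. Its groups also lay close without overlapping, with a log2 fold change of 0.33 (SE 0.088, adjusted p = 0.00191).

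In the membrane arm, fewer of the accessory subunits next to the matrix arm passed than of those at its far end. Of 9 proximal subunits, 3 fell and 0 rose, their log2 fold changes having a median of -0.10, and of 11 distal subunits, 7 fell and 0 rose, with a median of -0.36. The difference between the 2 ends was not tested, and the ends also differ in level. Of the proximal subunits that did not pass, NDUFA13, NDUFA11, NDUFA3, NDUFC2 and NDUFC1 averaged 1.98 to 9.86 CPM in the wild type, and NDUFA1 averaged 18 CPM. Among the distal subunits, only NDUFB8, at 3.57 CPM, averaged below 12.3 CPM there. In the proximal part, NDUFS5 had 40.1, 38.4 and 34.8 CPM in the knockout libraries, against 45.5, 48.4 and 44.0 CPM in the wild-type libraries, a log2 fold change of -0.28 (SE 0.066, adjusted p = 0.000482). NDUFA8, which like NDUFS5 faces the intermembrane space, fell by 0.31, and NDUFA10, related to nucleoside kinases, fell by 0.19. The other 6, NDUFA1, NDUFA3, NDUFA11, NDUFA13, NDUFC1 and NDUFC2, had log2 fold changes from -0.20 to 0.11 and overlapping groups.

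Every distal subunit had a negative log2 fold change, from -0.64 to -0.14. NDUFB10, a distal subunit with paired cysteines, had 35.5, 34.8 and 31.0 CPM in the knockout libraries, against 45.9, 49.9 and 43.5 CPM in the wild-type libraries, a log2 fold change of -0.46 (SE 0.069, adjusted p = 8.39e-07). NDUFB4 had 34, 32.6 and 31.2 CPM in the knockout libraries, against 43.5, 46.6 and 42.4 CPM in the wild-type libraries, a log2 fold change of -0.44 (SE 0.066, adjusted p = 8.99e-07). In both genes all knockout libraries were below all wild-type libraries. NDUFB3, a small single-span membrane subunit, fell by 0.64, the largest fall of the distal subunits, NDUFB6 fell by 0.51, NDUFB1 fell by 0.43, NDUFB9 fell by 0.36 and NDUFB11 fell by 0.21. Without knockout replicate 3, the adjusted p of NDUFB11 was 0.134, at a log2 fold change of -0.13. NDUFB2, NDUFB5, NDUFB7 and NDUFB8 did not pass, with adjusted p-values of 0.0524, 0.0596, 0.186 and 0.365. Of the principal transcripts of distal subunits, NDUFB2 has 83.4% opposite BRAF and NDUFB2-AS1, NDUFB11 has 45.8% opposite RBM10 and NDUFB9 has 26% opposite TATDN1. Whether reads were counted by strand is unknown, so the values of these genes are uncertain. The same limit holds in other roles for NDUFA1 (44.5%), NDUFS7 (37.9%), NDUFA2 (24.1%) and NDUFAF3 (22.6%).

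NDUFAB1, the mitochondrial acyl carrier protein, sits at a position in each arm and also serves fatty acid synthesis and iron-sulfur cluster assembly. It had 48.1, 45.1 and 42.3 CPM in the knockout libraries, against 45.3, 44.6 and 43.9 CPM in the wild-type libraries. The groups overlapped, with a log2 fold change of 0.02 (SE 0.062, adjusted p = 0.842).

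**Figure D2:**
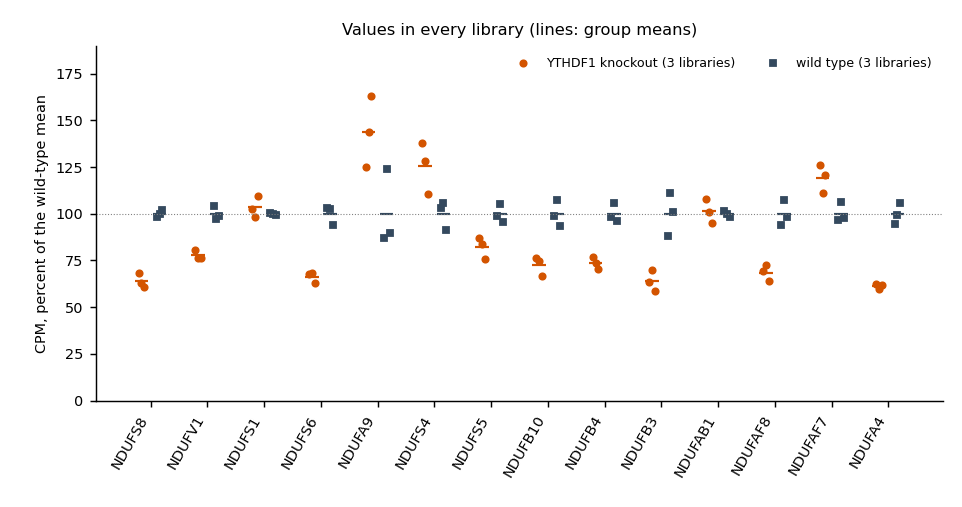
CPM in each library as a percent of the wild-type mean of that gene (vertical axis, from 0) for 14 genes (horizontal axis), with 3 YTHDF1 knockout libraries left of 3 wild-type libraries and lines at the group means. NDUFS8, NDUFS6, NDUFB3 and NDUFA4 lie well below 100 in every knockout library, NDUFS1 and NDUFAB1 lie around 100, and NDUFA9, NDUFS4 and NDUFAF7 lie above it.

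Of the 8 assembly factors with an NDUFAF symbol, 4 fell and 1 rose. NDUFAF8 and NDUFAF5 act together, NDUFAF5 hydroxylating an arginine of NDUFS7 and NDUFAF8 stabilising NDUFAF5. NDUFAF8 had 19.6, 20.6 and 18.1 CPM in the knockout libraries, against 26.7, 30.5 and 27.9 CPM in the wild-type libraries, a log2 fold change of -0.54 (SE 0.08, adjusted p = 6.53e-07), and the groups were far apart. NDUFAF5 had 22.7, 21.2 and 22.2 CPM in the knockout libraries, against 19.7, 22.0 and 18.3 CPM in the wild-type libraries, a log2 fold change of 0.15 (adjusted p = 0.144), and the groups overlapped. Without wild-type replicate 2, the log2 fold change of NDUFAF5 was 0.21 and its adjusted p was 0.049.

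NDUFAF3 and NDUFAF4, which act together on the ubiquinone module, were another such pair: NDUFAF3 fell by 0.45 (adjusted p = 0.000532) and NDUFAF4 had a log2 fold change of 0.10 (adjusted p = 0.408). NDUFAF7, an arginine methyltransferase of complex I assembly, was the factor that rose. It had 35.2, 31.0 and 33.7 CPM in the knockout libraries, against 26.9, 29.6 and 27.2 CPM in the wild-type libraries, a log2 fold change of 0.26 (SE 0.073, adjusted p = 0.00322), with no overlap. NDUFAF6 fell by 0.31, with an adjusted p of 0.0636 without wild-type replicate 2. NDUFAF1, of the complex that assembles part of the membrane arm, fell by 0.39 with an adjusted p of 0.0259, which became 0.236 without knockout replicate 3 and 0.194 without wild-type replicate 2. NDUFAF2, a paralog of NDUFA12 that holds its place during assembly, had a log2 fold change of -0.20 (adjusted p = 0.0749).

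NDUFA4, named for complex I but a subunit of cytochrome c oxidase, had the largest fall of all 47 genes. It had 48.2, 46.3 and 47.9 CPM in the knockout libraries, against 73.1, 77.0 and 81.9 CPM in the wild-type libraries. Every knockout value was well below every wild-type value, and NDUFA4 fell by 0.70 on the log2 scale (SE 0.056, adjusted p = 1.33e-12), or 38.6% lower. It was the only one of the 47 that passed when a fold change of 1.5 was built into the test. Its paralog NDUFA4L2, a gene known to be induced by hypoxia, had 1.67, 0.662 and 1.33 CPM in the knockout libraries, against 0.739, 0.853 and 1.07 CPM in the wild-type libraries. Its groups overlapped at these low counts, and its adjusted p was 0.33.

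Complex I also needs 7 subunits encoded in mitochondrial DNA, and all 7 were lower in the knockout, where 26.3% of all tested genes fell. Their log2 fold changes ran from -0.60 to -0.37 with a median of -0.42. MT-ND5, a proton-pumping subunit at the distal end, had 2420, 2300 and 2460 CPM in the knockout libraries, against 3390, 3510 and 3610 CPM in the wild-type libraries, a log2 fold change of -0.55 (SE 0.037, adjusted p = 1.14e-14). MT-ND6, the subunit encoded on the other strand of the mitochondrial genome, had 556, 480 and 528 CPM in the knockout libraries, against 756, 795 and 805 CPM in the wild-type libraries, a log2 fold change of -0.59 (SE 0.045, adjusted p = 3.34e-13). The groups were apart for all 7, where they were apart for 58.9% of all tested genes. Summed over the 7 genes, the knockout level was 0.747 of the wild-type level, where the sum over the 37 nuclear subunits was 0.844 of it. Over all mitochondrially encoded mRNAs, these 7 included, the ratio was lower still, at 0.646, so the fall was not particular to complex I. MT-ND4L shares 2.36% of its bases with MT-ND4, so a few of its reads could be counted for either.

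Of 14 assembly factors with other names, 12 fell and 0 rose, where 26.3% of all tested genes fell and 27.2% rose. Of all tested genes at 20 CPM or more in the wild type, 41.1% fell and 32.2% rose. Their median log2 fold change was -0.37, and that of the 8 NDUFAF genes was -0.26, a difference that was not tested. AIFM1, a mitochondrial flavoprotein needed for import of respiratory chain subunits and known for its part in cell death, had 47.3, 38.1 and 40.5 CPM in the knockout libraries, against 73.4, 76.5 and 72.7 CPM in the wild-type libraries, a log2 fold change of -0.82 (SE 0.064, adjusted p = 6.32e-13). LYRM2 had 35.9, 32.7 and 35.6 CPM in the knockout libraries, against 46.2, 50.5 and 50.5 CPM in the wild-type libraries, a log2 fold change of -0.50 (SE 0.065, adjusted p = 5.79e-08). In both genes the groups were apart. The partners of NDUFAF1 in its assembly complex were among those that fell: ECSIT fell by 0.44, COA1 fell by 0.38, TMEM126B fell by 0.35 and ACAD9 fell by 0.19, the last with overlapping groups, while TMEM186 had a log2 fold change of 0.08 (adjusted p = 0.653).

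Genes that mark mitochondrial content beyond complex I were mixed, with 7 of 12 lower and 1 higher, or 58.3% and 8.33%. Of all tested genes, 26.3% fell and 27.2% rose. At 20 CPM or more in the wild type, 41.1% of all tested genes fell and 32.2% rose. CS, the citrate synthase gene, fell by 0.58 to 150 ± 3.77 CPM in the knockout group, against 225 ± 1.65 CPM in the wild-type group. TOMM40, the import channel of the outer membrane, fell by 0.47, and VDAC2, an outer membrane channel, rose by 0.42. Of 10 regulators of mitochondrial biogenesis, 7 fell and 1 rose, or 70% and 10%, beside the same shares of all tested genes. GABPA, an ETS factor that acts on respiratory chain promoters, fell by 0.58 to 20.8 ± 1.23 CPM in the knockout group, against 31.1 ± 2.68 CPM in the wild-type group, and the coactivator gene PPARGC1B fell by 0.68. TFAM, the factor that packages and transcribes mitochondrial DNA, rose by 0.17, and NRF1 had a log2 fold change of -0.14 (adjusted p = 0.262).

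**Figure D3:**
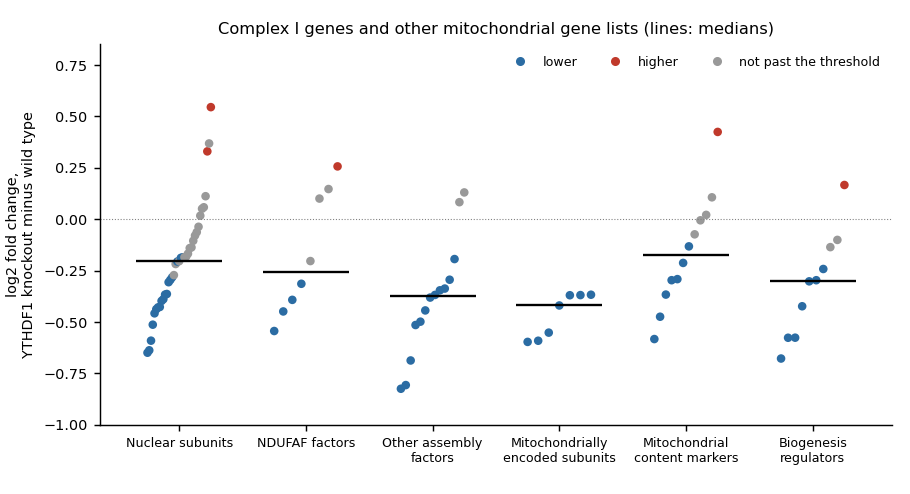
Log2 fold change, YTHDF1 knockout minus wild type (vertical axis), of each tested gene in 6 lists, with lines at the medians. The 7 mitochondrially encoded subunits and 12 of 14 other assembly factors are coloured as lower, while the 37 nuclear subunits spread on both sides of 0 with a median of -0.20.

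Levels per kb of merged exons differed widely among the 47 genes, and 5 of the 8 lowest in the wild type belonged to genes that share 44.1% or more of their principal transcript with another gene on the same strand. On this length NDUFS5 was highest, at 68.9 CPM per kb in the knockout group and 83.9 CPM per kb in the wild-type group, followed in the wild type by NDUFB10 at 43.4, NDUFA8 at 39.2, NDUFB7 at 39.0 and NDUFB11 at 38.5 CPM per kb. NDUFA7, NDUFA11, NDUFB8 and NDUFV2 share 75.9%, 67%, 71.7% and 82.9% of the bases of their principal transcript with another gene on the same strand in GENCODE 29. Their levels ran from 0.375 to 1.54 CPM per kb in the knockout group and from 0.44 to 1.79 in the wild-type group, where the medians of the other 43 genes were 8.54 and 9.38 CPM per kb. NDUFA13, which shares 44.1%, had 0.64 CPM per kb in the knockout group and 0.732 in the wild-type group. NDUFA9, also among the lowest, shares 11.8% of a principal transcript of 8363 bases, including 983 bases shared with AC005833.1. The order depends on the length used: per kb of principal transcript, NDUFS8 was highest in the wild type, at 57.0 CPM per kb in the knockout group and 89.3 in the wild-type group, and NDUFA11 and NDUFB8 were no longer among the 8 lowest, at 8.09 and 4.61 CPM per kb in the knockout group and 8.79 and 5.32 in the wild-type group. On that length the medians of the 4 genes sharing at least 50% were 3.68 CPM per kb in the knockout group and 3.72 in the wild-type group, and those of the other 43 were 19.3 and 24.4.

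Most of the genes that share these exons took few or no reads themselves. AL133352.1, AP005263.1 and AC024592.3, the partners of NDUFB8, NDUFV2 and NDUFA11, had 0 counts in every library, and AC010323.1, the partner of NDUFA7, had 0 to 3. AC011448.1, the partner of NDUFA13, had 12, 23 and 10 counts in the knockout libraries, against 44, 18 and 26 in the wild-type libraries, where NDUFA13 itself had 64, 79 and 52 counts in the knockout libraries, against 77, 49 and 84 in the wild-type libraries. The labels do not record how reads in shared exons were counted, so the levels of these 5 genes are uncertain. All 5 are among the 21 that did not pass the threshold. The same limit holds for NDUFA9, which rose, NDUFV1, which fell, and NDUFC2, which did not pass. They share 11.8%, 16.7% and 17.1% on the same strand. NDUFS7 was also low, at 0.597 CPM per kb in the knockout group and 0.682 in the wild-type group, with 37.9% of its principal transcript facing antisense genes. Pseudogenes with names of this family, 57 in the table, held 84 to 134 counts per library in the knockout group and 74 to 96 in the wild-type group, against 38992 to 46820 and 37870 to 54665 counts on the 47 genes.

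**Figure D4:**
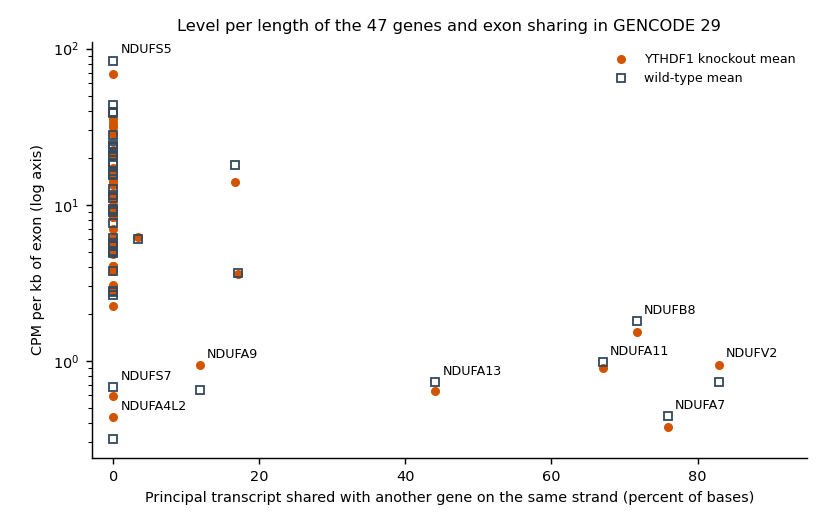
Level per kb of merged exons (vertical log axis, CPM per kb) against the percent of the principal transcript shared with another gene on the same strand in GENCODE 29 (horizontal axis), with group means of YTHDF1 knockout and wild type for each of the 47 genes. The 4 genes with at least 50% shared lie below 2 CPM per kb in both groups.

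Many of the 47 genes start close to another gene. Of 19951 coding genes, expressed or not, 13% have a protein-coding gene starting on the other strand within 1000 bases. Since all 47 passed the filter on low counts, a higher share among them need not be particular to complex I. Of the 47, 23 (48.9%) have such a neighbour. For the genes that rose this neighbour can be compared: NDUFAF7 starts 82 bases from CEBPZ, a nucleolar factor gene, which had 80.4, 73.6 and 76.1 CPM in the knockout libraries, against 68.3, 69.2 and 64.8 CPM in the wild-type libraries, a log2 fold change of 0.19 (adjusted p = 0.00356). NDUFA9 starts 48 bases from AKAP3, a sperm anchoring protein gene, which had 1.64, 2.3 and 1.45 CPM in the knockout libraries, against 0.739, 0.148 and 0.375 CPM in the wild-type libraries, a log2 fold change of 2.03 (adjusted p = 4.64e-05). Both neighbours thus rose with their partner, at low counts for AKAP3. Of the 8 genes that fell and have a tested neighbour, 3 have a neighbour that fell and 0 have one that rose. Of the 11 that did not pass and have a tested neighbour, 4 have one that fell and 3 have one that rose. Over all tested genes, 26.3% fell and 27.2% rose. NDUFB9 and NDUFB11 fell, as did their neighbours TATDN1 and RBM10. These neighbours lie opposite 26% and 45.8% of the principal transcripts of NDUFB9 and NDUFB11, so reads may be shared.

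NDUFS1, which did not pass the threshold, starts 18 bases from EEF1B2, a translation elongation factor gene. EEF1B2 had 145, 141 and 137 CPM in the knockout libraries, against 326, 333 and 319 CPM in the wild-type libraries, a log2 fold change of -1.21 (SE 0.043, adjusted p = 4.14e-22). The log2 fold change of NDUFS1 was 0.05, and the difference between the 2 genes was not tested. Of the principal transcript of NDUFS1, 12.1% lies opposite other genes. EEF1B2 accounts for only 0.161%, and AC007383.3, with 0 counts in every library, for 11.9%. NDUFS6 starts 34 bases from MRPL36, a mitochondrial ribosomal protein gene, whose log2 fold change was -0.09 (adjusted p = 0.488) while that of NDUFS6 was -0.59. These pairs were chosen after their values were seen.

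Promoter windows of 300 bases were at hand for 39 of the 47 genes, 18 of them among the genes that fell. NDUFA4, NDUFA4L2, NDUFAF6, NDUFB5, NDUFB9, NDUFC2 and NDUFS5 were among those with no window. The NRF1 motif GCGCATG, searched like the others on both strands, was in 9 of 39 (23.1%), where 5.3% of 27305 genes with a window hold it. The YY1 motif AAGATGG was in 10 (25.6%, against 7.11% of all), the ETS motif CCGGAAG in 7 (17.9%, against 12.2%), the Sp1 motif GGGCGG in 25 (64.1%, against 48.3%) and TATAAA in 3 (7.69%, against 14%). The 27305 genes were not limited to coding or expressed genes, as the 47 were, so these gaps need not be particular to complex I. None of these searches says whether a factor binds.

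The NF-Y motif CCAAT was in 12 of 39 (30.8%), where 39.7% of all genes with a window hold it. Split by response, it was in 9 of the 18 genes that fell with a window, in 3 of the 18 that did not pass and in 0 of the 3 that rose. Neither this split nor those of the other motifs was tested. NDUFS8, printed above, held 4 matches, at 197, 136, 83 and 30 bases before its start. The ETS motif was in 1 of 18 genes that fell and in 6 of 18 that did not pass. The Sp1 motif was in 12 of 18 that fell and in 13 of 18 that did not pass. The NRF1 motif was in 5 of 18 that fell and 4 of 18 that did not pass, and NDUFS6 held its match 46 bases before its start. The YY1 motif was in 2 of the 3 genes that rose, NDUFA9 and NDUFS4, and in 4 of the 18 that fell. In NDUFS4 the match began at base 22 of the transcribed part, downstream of the start. None of the 6 motifs overlaps another within the 3 windows printed.

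Among the knockout libraries, replicate 1 was highest for 33 of the 47 genes, while among the wild-type libraries replicate 2 was highest for 22, replicate 3 for 14 and replicate 1 for 11. Without knockout replicate 1 the median log2 fold change over the 47 genes was -0.258, with 25 lower and 3 higher. Across the 47 genes the log2 fold change had a Spearman rho of 0.24 with exon length and of -0.28 with mean CPM, given as a description since the genes share the same 6 libraries. With up to 1933 bases of exon, 12 of 19 of the complex I genes fell, where 16.4% of all tested genes of that length fell. From 1933 to 3420 bases, 2 of 10 fell, where 23.7% of all tested genes of that length fell. From 3420 to 5124 bases these values were 5 of 9 and 27.4%. From 5124 to 7522 bases they were 2 of 4 and 29.5%, and above 7522 bases 2 of 5 and 35.5%. The genes compared at each length were not matched for level, with which the share called also varied.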

How the data were processed

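RNA-seq counts of 3 YTHDF1 knockout and 3 wild-type A549 libraries were grouped by title. The authors deposited whole-number counts per Ensembl gene. The submitters' processing notes name Trim Galore 0.6.6, STAR 2.7.0d, featureCounts 2.0.1, edgeR 3.32.1 and GRCh38, without their roles, and the kit was a stranded TruSeq kit, per the labels' protocols. The annotation, strand setting and treatment of shared reads are unknown here.

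Genes were kept by filterByExpr, scaled by TMM and compared by genotype with the two-sided quasi-likelihood test of edgeR 4.0.16 in R 4.3.3, adjusted by Benjamini-Hochberg over 18505 genes; the script was tested on simulated counts. Exonic lengths, overlaps and coordinates came from GENCODE 29, which may differ from the authors' annotation. Within groups, libraries differed by more than counting noise (chi-square over its degrees of freedom, 4.4 to 6.55), so none was a duplicate.

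The genes, roles and lists were chosen with earlier results of these data known. Values of 1 of the 47 genes are not reported here, though it is in the counts. Library values were given for the smallest adjusted p per role and direction (and the next where over 5 were called), the core subunits, NDUFA4, NDUFA4L2 and NDUFAB1; NDUFS4, NDUFAF5, NRF1, the partners of NDUFAF1 and genes at neighbouring starts were added after their values were seen. Alternatives were RLE factors, library size only, other filters, DESeq2 1.42.0, limma-voom 3.58.1, a replicate block, a fold of 1.5, a threshold of 0.01, removal of a length trend and leaving out each library.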

Additional observations from a re-analysis of the deposited data

How the results depend on the processing

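Over the 47 complex I genes, 23 lower and 3 higher calls were found with RLE factors, library size only, no low-count filter and DESeq2, and 24 or 25 lower and 3 higher with a filter of 1 CPM in 3 libraries, limma-voom, the replicate block and removal of the length trend. Leaving out each library gave 21 to 25 lower and 3 to 4 higher calls, and a median log2 fold change from -0.258 to -0.187. With a threshold of 0.01, 22 were lower. With a fold change of 1.5 built into the test, 2585 genes passed in all, 1 complex I gene was lower (NDUFA4) and 0 were higher, against 2 of the other assembly factors lower and 0 of the mitochondrially encoded subunits lower, since most changes were smaller than that fold. NDUFB2 passed under 4 alternatives and NDUFB5 under 5, while NDUFAF1, NDUFAF6 and NDUFB11 lost their calls without 1 library. No direction of a called gene reversed. Deviations from the group means correlated at -0.036, -0.02 and 0.033 between libraries of replicate number 1, 2 and 3. With 3 libraries per group and noise at low counts, this cannot show whether equal numbers mark a shared culture or day. With the replicate block, 24 were lower and 3 higher. Depth limits the genes below 5 CPM, with SEs up to 0.47 on the log2 scale.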
